A study of Homo sapiens with 2 samples.

Results

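The chains of collagens and laminins were examined in Huh7 cells, an established human line from a well differentiated hepatocellular carcinoma. Members were all genes whose symbol names a collagen alpha chain or a laminin alpha, beta or gamma chain. The rule found 56 of 25343 gene entries, 44 of them collagen and 12 laminin chains. RNA was sequenced after 6 days in low glucose medium (0.45 g/L) or in high glucose medium (4.5 g/L), with 1 library per medium. In both media the cells were kept in serum-supplemented DMEM, seeded at 500000 per well, replated from live cells when nearly confluent, and trypsinised before RNA extraction. The line stands for tumour hepatocytes alone, without the stellate, endothelial and blood cells of a liver, and no gene was altered in either group.

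Collagens are extracellular proteins built from a triple helix of 3 chains, and each chain has its own gene. Fibrillar collagens form the tensile fibres of connective tissue, FACIT collagens (fibril-associated collagens with interrupted triple helices) coat those fibres, and type IV collagen forms the sheet of the basement membrane. Laminins are cross-shaped trimers of an alpha, a beta and a gamma chain that start basement membrane assembly and bind integrins on the cell. In liver, stellate cells and fibroblasts make most fibrillar collagen, while hepatocytes are a known source of type XVIII collagen.

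Levels are given in TPM, a share of all transcripts that corrects for transcript length, so levels of different chains may be set side by side. Nearly every chain with a mean of at least 1 TPM over both libraries stood higher in low than in high glucose. Below that level the directions were mixed. The chains together held 2051 TPM in low glucose, or 0.205% of the library, and 1307 TPM in high glucose, or 0.131%. Of the 56 chains, 36 had the higher TPM in low glucose, 11 had the lower and 9 had equal values, of which 6 were listed at 0 in both libraries.

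A mean of at least 1 TPM over both libraries was reached by 26 chains, and these were compared on the log2(TPM + 1) scale, as the low glucose value minus the high glucose value. COL16A1 alone reached that level only through the low glucose library. The difference was above 0 for 25 of the 26 and below 0 for COL14A1, where 54.6% of all 13745 genes compared lay above 0 and 45.3% below. At least 2-fold higher in low glucose were COL12A1, COL1A1, COL16A1, LAMA3, COL4A6 and COL18A1, which makes 6 of 26, against 3.65% of all genes compared. COL16A1 passed the filter only through the library where it was high, so its place in that count is not support. COL14A1 was the 1 chain at least 2-fold lower, against 1.10% of all genes. The median difference of the 26 chains was 0.57, and that of all genes compared was 0.05. Each medium has a single library, so no test was possible and these values describe 2 libraries. When 5 TPM was added in place of 1, a scale that weighs scarce genes less, COL12A1 was the only chain at least 2-fold higher, or 1 of 26 against 1.70% of all genes on that scale. After the subtraction by transcript length given below, COL12A1, COL1A1 and COL16A1 were, or 3 of 26 against 3.39% of all genes. The same limit holds for COL16A1 in that count. More transcript per cell cannot be told apart from more cells that make it.

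**Figure D1:**
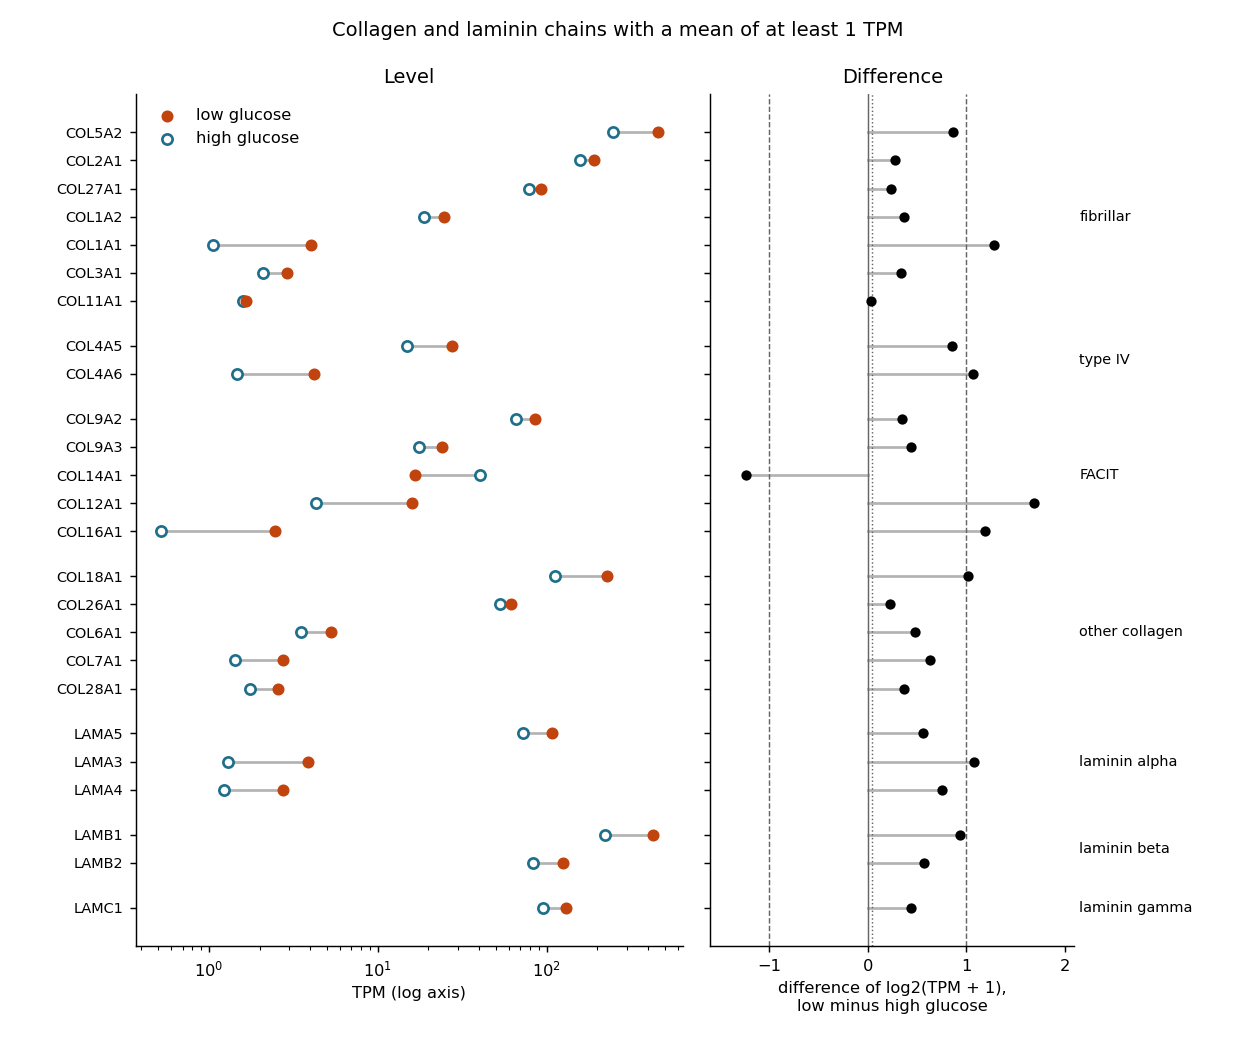
Left, TPM on a log axis of 25 of the 26 chains with a mean of at least 1 TPM, in low glucose (filled) and high glucose (open), 1 library each. Right, the difference on the log2(TPM + 1) scale, low minus high glucose; dashed lines mark 2-fold and the dotted line the median of all genes (0.05). The filled point lies to the right for every chain but COL14A1.

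Differences across all genes varied with level and transcript length. Among 20 groups of genes ordered by mean TPM, the median difference ran from 0.20 near 2.0 TPM to -0.16 near 158 TPM, and 1.60% to 6.55% of a group were at least 2-fold higher. With genes divided by transcript length into 5 equal groups, the longest group (5776 bases or more) had a median of 0.13, the shortest group had -0.06, and 15 of the 26 chains were in the longest. For subtraction, genes were divided by length into 20 groups instead of 5. After subtraction of the median of genes of like length the chains had a median of 0.47 with 24 above 0. After the same subtraction by level, the median was 0.51 with 24 above 0.

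**Figure D2:**
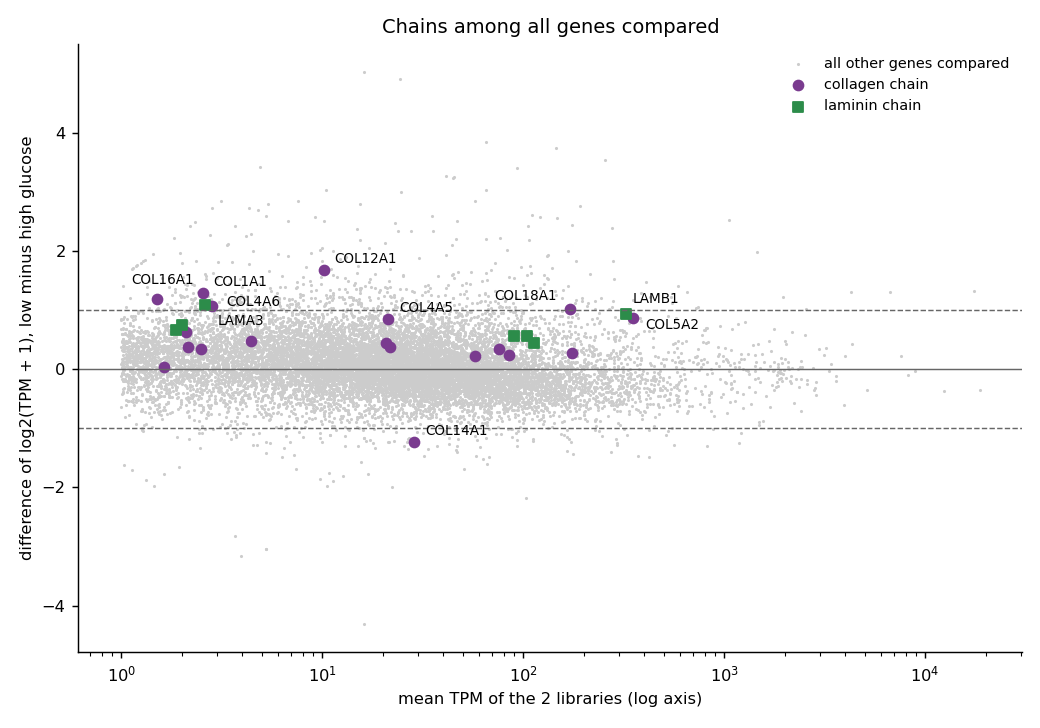
Difference on the log2(TPM + 1) scale, low minus high glucose, against mean TPM (log axis) for the 13745 genes compared (grey), with collagen chains as circles and laminin chains as squares; dashed lines mark 2-fold. The chains lie at low and high levels alike, up to that of COL5A2, and COL14A1 is the one chain below 0.

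Fibrillar chains summed to 774 TPM in low glucose and 510.4 TPM in high glucose, a ratio of 1.52. The class was led by COL5A2, the alpha-2 chain of type V collagen, which seeds fibrils of type I (chromosome 2, 189896641 to 190044605 in hg19). COL5A2 stood at 455 TPM in low and 249 TPM in high glucose, a difference of 0.87, short of 2-fold. It was the most abundant of all 56 chains in both libraries. COL2A1, the chain of the main cartilage collagen, stood at 192 TPM in low and 158 TPM in high glucose. COL27A1, a fibrillar chain best known from cartilage, stood at 92.3 TPM in low and 78.2 TPM in high glucose. Both lay within 2-fold, with differences of 0.28 and 0.24.

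The chains of type I and type III collagen, the bulk of scar tissue, were far scarcer. COL1A1 stood at 4.03 TPM in low glucose and 1.06 TPM in high glucose, a difference of 1.29. Its partner COL1A2 stood at 24.6 TPM in low and 18.7 TPM in high glucose, a difference of 0.37. The most common type I trimer holds a pair of alpha-1 chains and a single alpha-2 chain, yet COL1A2 exceeded COL1A1 in TPM by 6.09 times in low and 17.7 times in high glucose. COL3A1, the type III chain, stood at 2.91 and 2.09 TPM in low and high glucose, and COL11A1, a minor chain of cartilage fibrils, at 1.66 TPM in low and 1.59 TPM in high glucose. The difference of COL11A1 was 0.04, the nearest to 0 of the 26, and its sign turned under 2 other scalings. The other fibrillar chains, COL5A1, COL5A3, COL11A2 and COL24A1, lay below the level compared. COL5A1, with which COL5A2 forms the usual type V trimer, was listed at 0 TPM in low and 0.11 TPM in high glucose.

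Type IV collagen was present almost only as its alpha-5 and alpha-6 chains, which are known to form a trimer with each other. COL4A5 (chromosome X, 107683074 to 107940775 in hg19) stood at 27.7 TPM in low and 14.9 TPM in high glucose, a difference of 0.85. COL4A6 stood at 4.20 TPM in low and 1.47 TPM in high glucose, a difference of 1.07. COL4A1 and COL4A2, the chains of the type IV network found in nearly all basement membranes, were below the level compared. COL4A1 stood at 0.36 and 0.48 TPM in low and high glucose, and COL4A2 at 0.02 TPM in low and 0.07 TPM in high glucose. COL4A3 and COL4A4 did not exceed 0.07 TPM in either library. The class summed to 32.4 TPM in low and 17.0 TPM in high glucose, a ratio of 1.91.

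COL4A5 and COL4A6 lie head to head, 0.346 kb apart in the authors' hg19 intervals. The 250 bases upstream of each start are shown because the pair was higher together and their upstream windows overlap, read from opposite strands. Sequences here and below are RefSeq promoter windows on GRCh38.p14, written 5′ to 3′ on the gene's own strand, and capitals mark matches to a fixed set of short motifs named further on. The COL4A5 window is chrX:108439588-108439837 on the plus strand, and the COL4A6 window, from the nearer of its 2 listed starts, is chrX:108439459-108439708 on the minus strand.
COL4A5: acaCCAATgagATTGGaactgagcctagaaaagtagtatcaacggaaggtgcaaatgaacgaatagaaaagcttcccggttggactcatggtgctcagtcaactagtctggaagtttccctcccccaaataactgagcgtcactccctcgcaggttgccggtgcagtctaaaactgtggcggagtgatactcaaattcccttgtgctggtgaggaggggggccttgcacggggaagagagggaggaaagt
COL4A6: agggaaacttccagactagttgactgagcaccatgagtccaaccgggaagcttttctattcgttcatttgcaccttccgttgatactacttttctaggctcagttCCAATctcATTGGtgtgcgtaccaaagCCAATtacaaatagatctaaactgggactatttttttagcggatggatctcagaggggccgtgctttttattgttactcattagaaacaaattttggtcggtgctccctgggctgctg
Both windows hold the same pair of CCAAT boxes in opposite directions, which is 1 stretch of DNA seen from either side, and the COL4A6 window holds 1 CCAAT box more. The windows held 8 and 7 CpG dinucleotides, against a median of 11 over all 35116 windows.

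FACIT collagens held both the largest positive difference and the one negative difference past 2-fold. COL12A1, whose product bridges fibrils and is made by fibroblasts of tendon and skin (chromosome 6, 75794042 to 75915623 in hg19), stood at 16.0 TPM in low and 4.29 TPM in high glucose. Its difference of 1.69 was larger than that of 99.3% of all genes compared, and it stayed past 2-fold under each alternative tried. COL14A1, its close relative in structure and also a fibril coat protein, stood at 16.6 TPM in low and 40.6 TPM in high glucose, a difference of -1.24. These paralogs were thus nearly level with each other in low glucose, while COL14A1 stood far above COL12A1 in high glucose.

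The window upstream of COL12A1 is shown as that of the chain with the largest difference on the log2(TPM + 1) scale, at chr6:75206054-75206303 on the minus strand.
COL12A1: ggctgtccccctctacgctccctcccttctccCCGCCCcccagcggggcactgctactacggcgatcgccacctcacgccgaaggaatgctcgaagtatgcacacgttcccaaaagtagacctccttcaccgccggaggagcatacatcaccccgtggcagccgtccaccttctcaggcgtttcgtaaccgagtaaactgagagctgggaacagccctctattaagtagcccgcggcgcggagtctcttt
Its only motif match was 1 GC box, and it held 21 CpG dinucleotides.

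COL16A1, a FACIT chain with a role in cell adhesion, stood at 2.48 TPM in low and 0.52 TPM in high glucose, a difference of 1.195. With 0.1 TPM added in place of 1, its difference was 2.06, above the 1.88 of COL12A1. COL9A2 and COL9A3 encode chains of type IX collagen, which coats cartilage fibrils, and COL9A2 was the most abundant FACIT chain in both libraries. COL9A2 stood at 84.95 TPM in low and 66.3 TPM in high glucose, a difference of 0.35. COL9A3 stood at 24.0 TPM in low and 17.5 TPM in high glucose, a difference of 0.44. COL9A1, the third chain of that trimer, was below the level compared at 0.27 and 0.17 TPM in low and high glucose. COL19A1, COL20A1, COL21A1 and COL22A1 were also below it. The class summed to 145 TPM in low and 130.01 TPM in high glucose, a ratio of 1.12, and without COL14A1 to 129 TPM in low and 89.5 TPM in high glucose, a ratio of 1.44.

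**Figure D3:**
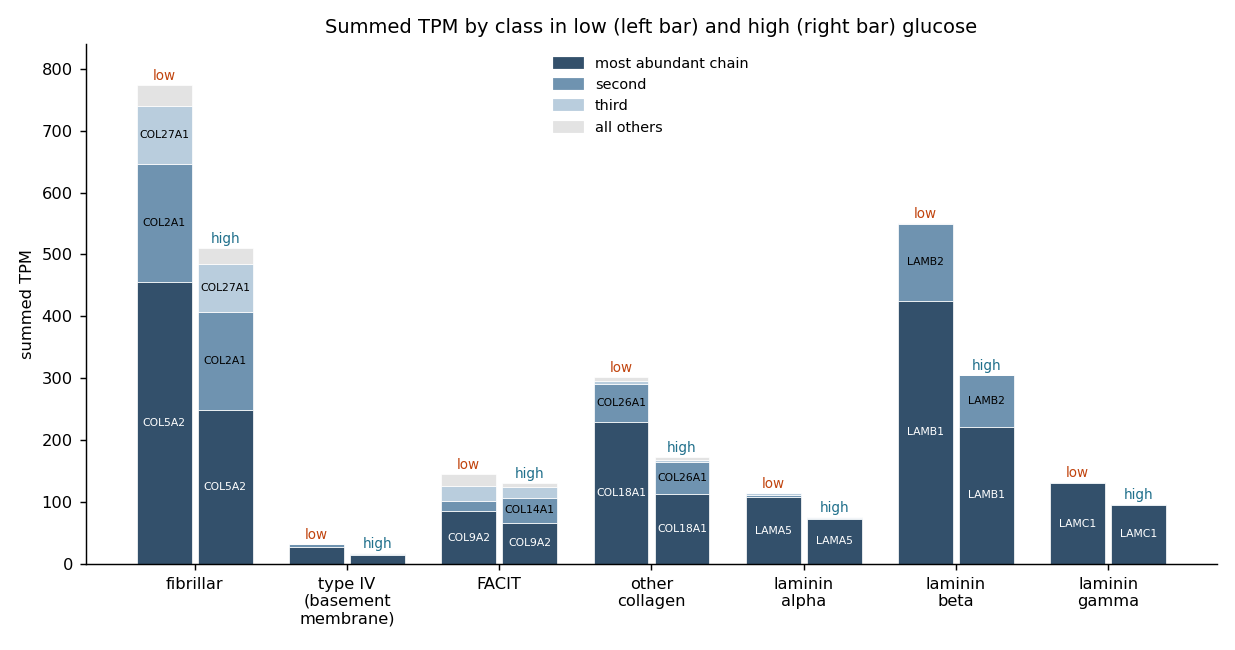
Summed TPM of each class in low glucose (left bars) and high glucose (right bars), 1 library each, stacked by the 3 most abundant chains of the class and all others. Each left bar is the taller; the FACIT chains have the lowest ratio, with 145 TPM in low and 130.01 TPM in high glucose.

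Collagens outside these classes were dominated by COL18A1, a basement membrane collagen that carries heparan sulfate and whose C-terminal fragment is endostatin, an inhibitor of vessel growth. COL18A1 (chromosome 21, 46825097 to 46933634 in hg19) stood at 229 TPM in low and 112 TPM in high glucose. The difference of 1.02 was the smallest of those past 2-fold, and it fell short under 3 of 4 other scalings, at 0.94 under median-of-ratios scaling. Just outside that limit stood LAMB1, at 0.94, which passed it at 1.08 once the median of genes of like level was subtracted. COL18A1 is transcribed from 2 starts, which give shorter and longer forms of the protein, and a gene-level TPM does not tell them apart.

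Both upstream windows of COL18A1 are shown because they differ in composition. The first lies at chr21:45404915-45405164 and the second at chr21:45455272-45455521, both on the plus strand.
COL18A1 first start: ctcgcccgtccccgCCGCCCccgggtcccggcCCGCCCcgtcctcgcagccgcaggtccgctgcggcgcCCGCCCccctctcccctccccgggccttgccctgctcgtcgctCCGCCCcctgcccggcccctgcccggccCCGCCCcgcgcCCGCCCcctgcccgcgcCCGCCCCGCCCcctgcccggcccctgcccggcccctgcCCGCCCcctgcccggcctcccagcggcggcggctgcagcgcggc
COL18A1 second start: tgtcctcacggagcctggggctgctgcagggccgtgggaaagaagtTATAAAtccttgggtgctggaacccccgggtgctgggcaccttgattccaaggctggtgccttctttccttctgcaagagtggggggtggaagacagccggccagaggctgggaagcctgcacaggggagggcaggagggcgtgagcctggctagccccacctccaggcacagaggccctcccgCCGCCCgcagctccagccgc
The first holds repeated GC boxes, 37 CpG dinucleotides and 88.4% G or C. The second holds a TATA box near its upstream end, 1 GC box, 9 CpG dinucleotides and 66.4% G or C.

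COL26A1, a collagen with an EMI domain, stood at 61.95 TPM in low and 52.9 TPM in high glucose, a difference of 0.22. COL6A1, a chain of the beaded filaments of type VI collagen, stood at 5.31 and 3.52 TPM in low and high glucose. Its partners were below the level compared, COL6A2 at 0.12 TPM in low and 0.02 TPM in high glucose and COL6A3 at 0.03 TPM in low and 0.02 TPM in high glucose. COL7A1, which anchors epithelia to the tissue below, stood at 2.76 TPM in low and 1.43 TPM in high glucose, a difference of 0.63. COL28A1, a collagen with von Willebrand A domains, stood at 2.56 TPM in low and 1.75 TPM in high glucose, a difference of 0.37. No transmembrane chain (COL13A1, COL17A1, COL23A1, COL25A1) and no short-chain network collagen (COL8A1, COL8A2, COL10A1) reached the level compared. The multiplexin COL15A1, the closest relative of COL18A1, was listed at 0 in low and 0.05 TPM in high glucose. This mixed class summed to 302 TPM in low and 172 TPM in high glucose, a ratio of 1.76, of which COL18A1 made up 75.8% in low and 65.2% in high glucose.

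All 7 laminin chains at the level compared stood higher in low glucose, with a median difference of 0.66. The most abundant chain of each kind was LAMA5, LAMB1 and LAMC1, and these chains assemble into laminin 511, a common form of epithelial basement membranes. With LAMB2 in place of LAMB1 the trimer is laminin 521. LAMA5 (chromosome 20, 60884116 to 60942368 in hg19) stood at 108 TPM in low and 72.5 TPM in high glucose, a difference of 0.57. LAMB1 (chromosome 7, 107564246 to 107643804 in hg19) stood at 425 TPM in low and 222 TPM in high glucose, a difference of 0.94. LAMB2 stood at 124 TPM in low and 83.4 TPM in high glucose, a difference of 0.57. The shared gamma chain gene LAMC1 (chromosome 1, 182992595 to 183114727 in hg19) stood at 130.1 TPM in low and 95.6 TPM in high glucose, a difference of 0.44.

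Beta chains outnumbered their partners in TPM, although each trimer takes up the 3 kinds equally. Beta chains summed to 551 TPM in low and 305 TPM in high glucose, a ratio of 1.80. Alpha chains summed to 114 TPM in low and 75.1 TPM in high glucose, a ratio of 1.52. Gamma chains summed to 133 TPM in low and 96.8 TPM in high glucose, a ratio of 1.37. The beta sum was thus 4.81 times the alpha sum in low and 4.07 times in high glucose, while the gamma sum was 1.16 times the alpha sum in low and 1.29 times in high glucose. LAMB1 exceeded LAMB2 by 3.42 times in low and 2.66 times in high glucose.

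The window upstream of LAMB1 is shown for the most abundant laminin chain, at chr7:108003162-108003411 on the minus strand.
LAMB1: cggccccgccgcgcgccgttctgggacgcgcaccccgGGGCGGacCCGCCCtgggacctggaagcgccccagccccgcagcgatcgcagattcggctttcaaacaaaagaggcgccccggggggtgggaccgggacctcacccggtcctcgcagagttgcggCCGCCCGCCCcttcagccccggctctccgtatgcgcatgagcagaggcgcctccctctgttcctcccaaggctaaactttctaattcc
It held 4 GC boxes, 2 of them overlapping, with 28 CpG dinucleotides.

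LAMA3 and LAMB3, which encode chains of an epithelial anchoring laminin, were scarce. LAMA3 stood at 3.89 TPM in low and 1.31 TPM in high glucose, a difference of 1.08. LAMB3 was below the level compared at 0.83 TPM in low and 0.32 TPM in high glucose. LAMA4, a chain of vessel and muscle basement membranes, stood at 2.77 TPM in low and 1.24 TPM in high glucose, a difference of 0.75. LAMA1, LAMA2, LAMB4 and LAMC3 did not exceed 0.21 TPM in either library.

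Below the level compared were 30 chains, of which 11 had the higher TPM in low glucose and 10 the lower. None of them exceeded 0.91 TPM in either library, a value that COL11A2 had in both. Those listed at 0 in both were COL6A5, COL6A6, COL8A1, COL13A1, COL23A1 and LAMC3.

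Genes of the chains often neighbour each other, a feature the choice of members did not use. Within 1 Mb of each other in the hg19 intervals lay 15 pairs, made of 24 chains. In 6 pairs both chains reached the level compared, in 5 pairs one did and in 4 pairs neither did. COL5A2 lies 19.2 kb from COL3A1 and exceeded it in TPM by 156 times in low and 119 times in high glucose. LAMB1 lies 20.2 kb from LAMB4, which stood at 0.21 TPM in low and 0.16 TPM in high glucose. COL4A5 and COL4A6 shared both their direction and their place, whereas the head-to-head pair COL4A1 and COL4A2 (0.134 kb apart) was near 0 in both libraries. An entry with a value above 0 overlapped only 2 of the 26 chains, TCFL5 at the end of COL9A3 and the antisense transcripts of COL18A1. TCFL5 stood at 10.3 TPM in low and 14.5 TPM in high glucose, a level of the same order as that of COL9A3 and in the opposite direction. The antisense transcripts of COL18A1 stood at no more than 0.17 TPM. Merged entries wider than 5 Mb were left out of that check.

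Promoter windows of 250 bases were held for 17 of the 26 chains compared, with 19 windows in all. COL18A1 and COL4A6 had 2 windows each. Chains without a window, which these tallies leave out, include COL14A1, COL1A1, COL1A2, COL2A1, COL3A1, COL5A2, COL6A1 and COL9A3. The GC box GGGCGG was in 14 of the 19, against 42.6% of all 35116 windows. The CCAAT box CCAAT was in 4 of the 19 against 32.01% of all windows, and TATAAA was in 2 against 10.7%. Among the 4 with a CCAAT box, the windows of COL4A5 and COL4A6 overlap and share a pair of boxes, so they are not separate. The AP-1 site TGANTCA was in 1, that of LAMA3, against 6.57% of all windows. No match was found among the 19 for the ATF4-C/EBP element TGATGNAA, the E-box CACGTG or the ER stress element, which 3.14%, 6.35% and 0.074% of all windows hold. Motifs were searched on both strands, and the ER stress element contains a CCAAT box. The windows of these chains had a median of 64.4% G or C, against 58.0% over all windows. These matches describe the letters of the windows and are not evidence of binding.

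Proteins that work with these chains mostly had differences above 0 as well, where over all genes compared 54.6% lay above 0 and 3.65% were at least 2-fold higher. The matrix lists, here and below, were chosen with earlier results of these data known. Their counts only describe these libraries and are not separate support for the chains. Of 13 other basement membrane proteins, 10 were compared, all 10 lay above 0, 4 were at least 2-fold higher and the median was 0.83. The most abundant, FBLN1 (fibulin-1), stood at 268.4 TPM in low and 267.7 TPM in high glucose. NID1, nidogen, which links laminin to type IV collagen, stood at 242 TPM in low and 181 TPM in high glucose. HSPG2, perlecan, the main heparan sulfate proteoglycan of basement membranes, stood at 101 TPM in low and 44.3 TPM in high glucose, a difference of 1.16. EFEMP1, a fibulin, and NTN4, a netrin that binds laminin, were past 2-fold from lower levels. EFEMP1 stood at 15.1 and 5.95 TPM in low and high glucose, and NTN4 at 13.8 TPM in low and 5.61 TPM in high glucose.

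Among receptors for collagens and laminins, 13 of 18 were compared, 12 lay above 0, 1 was at least 2-fold higher and the median was 0.43. A single gene of 13 past 2-fold is too few to set apart from the 3.65% of all genes. ITGB1, the beta subunit of the main matrix integrins, stood at 641 TPM in low and 475 TPM in high glucose. SDC4, a syndecan, stood at 515 TPM in low and 328 TPM in high glucose. The 1 past 2-fold was CD44, a receptor best known for hyaluronan, at 10.8 TPM in low and 4.40 TPM in high glucose.

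Genes of collagen folding, secretion and processing had 20 of 23 measured members compared, of which 17 lay above 0, with a median of 0.42. At least 2-fold higher were 2 of the 20, too few to set apart from the 3.65% of all genes. P4HB, a subunit of prolyl hydroxylase, stood at 1282 TPM in low and 1140 TPM in high glucose. PPIB, which speeds helix folding, stood at 792 TPM in low and 677 TPM in high glucose. Past 2-fold were the crosslinking enzyme gene LOXL2, at 25.8 TPM in low and 8.55 TPM in high glucose, and the hydroxylase gene P4HA2, at 103 TPM in low and 48.9 TPM in high glucose.

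Other matrix glycoproteins and fibril-associated proteins had 9 of 16 members compared, all 9 above 0, with a median of 1.04. At least 2-fold higher were 5 of the 9, against 3.65% of all genes compared. FN1, fibronectin, the most abundant, stood at 2645 TPM in low and 1699 TPM in high glucose. VTN, vitronectin, a plasma protein made by hepatocytes, stood at 2182 TPM in low and 1354 TPM in high glucose. The largest differences were those of THBS1 (thrombospondin-1), SPP1 (osteopontin) and BGN (biglycan), at 2.43, 1.63 and 1.09. THBS1 stood at 179.6 TPM in low and 32.5 TPM in high glucose, SPP1 at 165 TPM in low and 52.5 TPM in high glucose, and BGN at 39.3 TPM in low and 17.9 TPM in high glucose.

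**Figure D4:**
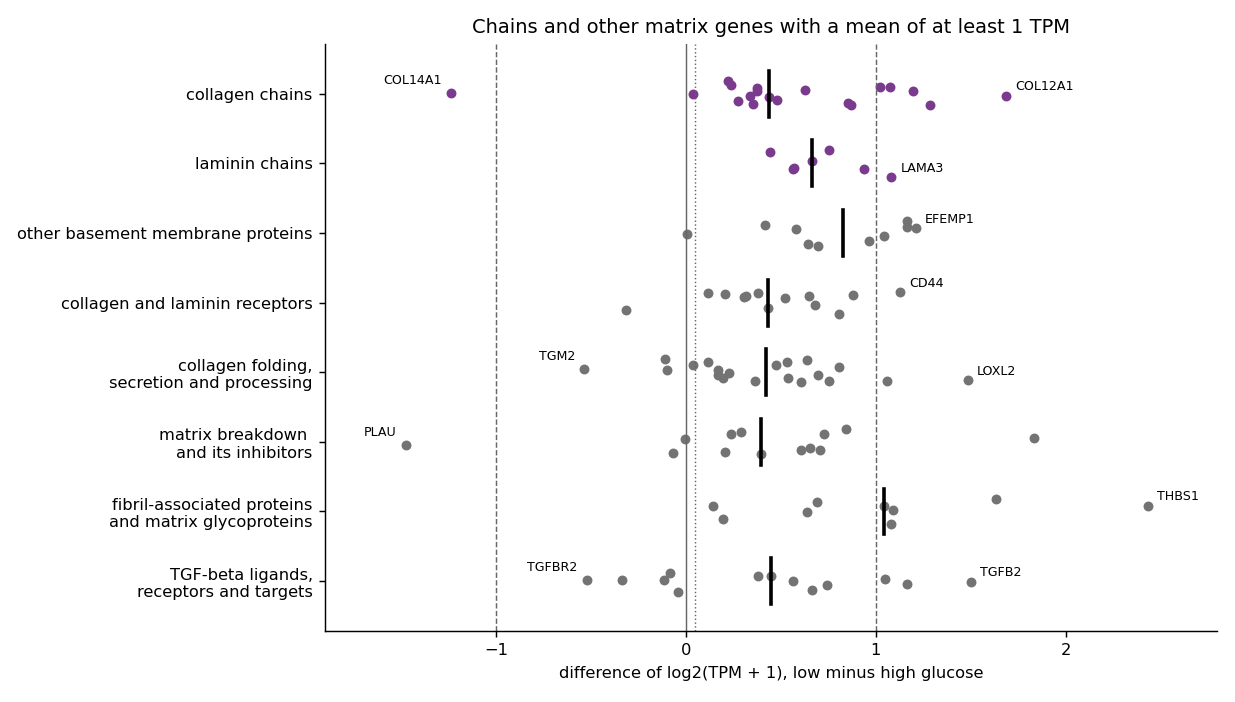
Difference on the log2(TPM + 1) scale, low minus high glucose, of each gene with a mean of at least 1 TPM in the chains and in 6 other matrix lists; bars mark list medians, dashed lines 2-fold, and the dotted line the median of all genes (0.05). List medians lie between 0.39 and 1.04, all above that of all genes.

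Markers of the cells that make most collagen in liver were low in both libraries, though not all absent. Of 10 fibroblast and stellate cell markers, 3 reached the level compared, none was past 2-fold, and the list summed to 21.4 TPM in low and 26.8 TPM in high glucose. Nearly all of that sum came from the 3 markers at the level compared. PDGFRA, a receptor for platelet-derived growth factor, stood at 7.89 TPM in low and 13.8 TPM in high glucose, a difference of -0.74. The related receptor gene PDGFRB stood at 8.82 TPM in low and 8.12 TPM in high glucose, and RGS5, a pericyte marker, at 3.85 TPM in low and 4.22 TPM in high glucose. POSTN and THY1 were listed at 0 in both libraries, and DCN stood at 0.07 TPM in both. Endothelial markers summed to 2.23 TPM in low glucose and nearly the same in high glucose, with PECAM1 at 1.25 TPM in low and 1.35 TPM in high glucose, CDH5 at 0.89 TPM in low and 0.74 TPM in high glucose, and VWF at 0.05 TPM in both. Blood cell markers summed to 42.1 TPM in low and 24.4 TPM in high glucose. Most of that was the lysosomal protein gene CD68, at 39.3 TPM in low and 20.4 TPM in high glucose, while CD14 stood at 2.26 TPM in low and 3.04 TPM in high glucose, and PTPRC at 0.50 TPM in low and 0.83 TPM in high glucose. Hepatocyte and hepatoma genes were abundant, with AFP at 16441 TPM in low and 20859 TPM in high glucose and ALB at 7997 TPM in low and 8528 TPM in high glucose. The 8 genes of that list summed to 34336 TPM in low and 40312 TPM in high glucose. Of these, 3 lay above 0, 5 lay below and none was past 2-fold. The largest difference was that of TTR, at 682 TPM in low and 1351 TPM in high glucose (-0.99). TF (0.42), FGB (0.59) and APOB (0.06) were the 3 above 0.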

How the data were processed

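RNA of Huh7 cells was sequenced in 1 library per medium. The deposited values are TPM per gene with 2 decimals, per the file headers, and sum to 1000000 in each library; the submitters' processing notes name cutadapt, RSEM 1.2.21 and the hg19 build. Neither the aligner nor the annotation is named there. TPM keeps no read number, so depth is unknown and no counting interval is given. Because TPM has a fixed total, growth of 1 gene's share reduces the rest.

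Genes with a mean of at least 1 TPM were compared by log2(TPM + 1), low minus high glucose, with 2-fold as the limit; this scale understates differences of low genes. All chains at that level are named but 1, with the 2 most abundant and up to 3 largest differences past 2-fold of each of 6 other matrix lists; that chain and 1 gene of those lists are not reported here. Cell markers are named where most abundant, at the level compared or near 0. Members and lists were chosen with earlier results of these data known. Transcript lengths were those of GENCODE release 29 (symbols of 92.8% of genes matched), and promoter windows from RefSeq. Python 3.11.15, pandas 2.3.3 and numpy 2.4.6 were used.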

Additional observations from a re-analysis of the deposited data

How the results depend on the processing

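No paired analysis was possible because each medium has 1 library. Alternatives were 4 scalings, 2 pseudocounts, 2 filters, 2 fold limits and subtraction of the median of genes of like level; subtraction by transcript length or GC content was chosen after seeing the data. COL12A1 was past the limit under each, and COL14A1 under each but the 3-fold limit. The number of chains past the limit, 6 higher and 1 lower, became 1 higher with a pseudocount of 5 (1.70% of all genes), 2 higher among 15 chains of at least 10 TPM (3.10%), and 3 higher with the length median subtracted (3.39%). COL12A1 reached the mean of 10 TPM only through the low glucose library, as COL16A1 did the mean of 1 TPM. The number was 4 higher under trimmed-mean scaling (2.94%) and with the GC median subtracted (3.25%). With a 1.5-fold limit 12 were higher (13.0% of all genes), and with a 3-fold limit 1 was higher and 0 lower (0.866% and 0.160% of all genes). The drop with a pseudocount of 5 follows from its construction, since it discounts low genes. COL18A1 fell short of 2-fold under median-of-ratios (0.94), upper-quartile (0.996) and trimmed-mean scaling (0.93), with a pseudocount of 5 (0.998), and with the length (0.91) or GC median (0.93) subtracted. COL4A6 fell short under trimmed-mean scaling (0.9998), with a pseudocount of 5 (0.51), and with the level (0.88) or length median (0.96) subtracted. LAMA3 fell short with a pseudocount of 5 (0.49) and with the level (0.88), length (0.88) or GC median (0.96) subtracted. COL1A1 (0.58) and COL16A1 (0.44) did so with a pseudocount of 5. Subtraction by level left 6 chains higher but not the same ones, since COL5A2 (1.01) and LAMB1 (1.08) passed 2-fold there, and LAMA4 (1.10) did with a pseudocount of 0.1. COL11A1 turned to -0.016 under median-of-ratios and -0.0185 under trimmed-mean scaling, to -0.16 with the level median and to -0.0785 with the length median subtracted. No class sum reached 2-fold under the scalings. As deposited, the fibrillar (1.52), type IV (1.91), other collagen (1.76), laminin alpha (1.52) and laminin beta (1.80) sums were past 1.5-fold. The fibrillar and laminin alpha sums were not under median-of-ratios (1.43 each), upper-quartile (1.49 and 1.495) or trimmed-mean scaling (1.42 and 1.43). Counting COL7A1, COL15A1 and COL18A1 as basement membrane collagens made that class 2.02. Under the 4 scalings the median over all genes was between -0.03 and 0.08. Depth and replicate spread are unknown, which limits every value under a few TPM most.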

Other observations

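Genes that break down matrix or inhibit its breakdown mostly had differences above 0 too, with exceptions. Of 22 measured, 13 were compared, 10 lay above 0, 3 below, and the median was 0.39. Over all genes compared, 54.6% lay above 0, 1.10% were at least 2-fold lower, and the median was 0.05. PLAU, the plasminogen activator urokinase, was at least 2-fold lower and stood at 16.4 TPM in low and 47.5 TPM in high glucose. The cathepsin gene CTSB was nearly level, at 116 TPM in low and 117 TPM in high glucose. The collagenase gene MMP1 stood at 0.05 TPM in both libraries, and the gelatinase gene MMP2 was listed at 0 in both; MMP1 and MMP2 were named after their values were seen.

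The TGF-beta list, whose ligands are known inducers of collagen genes, had 13 of 15 members compared. Of these, 8 lay above 0, 5 below and 3 were at least 2-fold higher, with a median of 0.45. Over all genes compared, 54.6% lay above 0, 45.3% below and 3.65% were at least 2-fold higher. The split of signs in the list was thus close to that of all genes. TGFBI, a secreted matrix protein, stood at 1189 TPM in low and 710.0 TPM in high glucose, and CTGF at 374 TPM in low and 180.2 TPM in high glucose. The ligand gene TGFB2 stood at 32.2 TPM in low and 10.7 TPM in high glucose, and LTBP1, which stores latent ligand, at 10.5 TPM in low and 4.15 TPM in high glucose. TGFB1 stood at 45.1 TPM in low and 57.3 TPM in high glucose, and the receptor gene TGFBR2 at 46.4 TPM in low and 67.2 TPM in high glucose, both named after their values were seen.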
